A study of Mus musculus with 44 samples.

Results

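The genes described here are 6 components of the NADPH oxidases out of 55486 genes counted in mouse mammary fibroblasts: the dual oxidases *Duox1* and *Duox2*, their maturation factors *Duoxa1* and *Duoxa2*, the oxidase *Nox4* and *Cyba*, which encodes its membrane partner. They were chosen by name on their library-scaled read counts (CPM) per mouse and CD26 class in control, WB1P and WB1P-Myc mice, so that levels and differences between those groups are given as descriptions with no test. Only the comparisons between sorted populations within a CD26 class did not enter that choice, and there the genes were tested.

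All recipients were female En1-Cre;mTmG mice, in which Cre driven by the *En1* locus switches a membrane reporter from tdTomato to GFP in the En1 lineage. They received control mammary tissue, in samples labeled wildtype, or pre-neoplastic tissue of WapCre;Brca1F/F;Trp53F/F (WB1P) donors or of WB1P-Myc donors. The WB1P-Myc donors add the Col1a1invCAG-Myc-IRES-Luc allele. In WB1P and WB1P-Myc donors Cre acts in mammary epithelium under the *Wap* promoter. The grafts were placed in fat pads that were not cleared, so that the glands also held the host's own epithelium. Tumors were taken at end stage, with controls of matching age, although 2 WB1P-Myc mice (replicates 12 and 13) were marked 8x8, a tumor size that the methods call advanced. Ages were not given in the labels. Cells outside the epithelial, endothelial and immune gates were sorted into 4 populations: En1+ and double-, which lack CD26, and CD26+ and double+, which carry it. Fibroblasts of control mice are called normal fibroblasts (NFs) and those of tumors cancer-associated fibroblasts (CAFs).

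The 44 libraries came from 13 mice (3 control, 5 WB1P and 5 WB1P-Myc) and were summed to 25 values of mouse and CD26 class: 3 per class in NFs, 10 for CD26- CAFs and 9 for CD26+ CAFs. Both classes were present in 12 mice, as only an En1+ library of WB1P replicate 4 was analysed here. Control labels carry paired numbers, each taken as 1 sample, and whether they are pools of animals was not given in the labels. Libraries held 5790599 to 15240328 counts (median 12818093). *Dpp4*, the gene of CD26, reached 233.5 to 804.5 CPM in CD26+ sums and 0.6201 to 15.32 CPM in CD26- sums. Fibroblast markers (*Pdgfra*, *Pdgfrb*, *Col1a1*, *Col1a2*, *Dcn*, *Lum* and *Col3a1*) summed to at least 31942 CPM in every group, while the epithelial, immune, endothelial and Schwann lists each stayed at or below 250 CPM.

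NADPH oxidases are membrane enzymes that pass electrons from NADPH to oxygen. DUOX1 and DUOX2 release hydrogen peroxide and leave the endoplasmic reticulum only with their partners DUOXA1 and DUOXA2; they are best known from the thyroid, where the peroxide is used in hormone synthesis, and from airway and gut epithelium. NOX4 forms hydrogen peroxide without an activating signal, needs the small membrane protein encoded by *Cyba*, and is a known TGFβ-induced oxidase of fibroblasts and myofibroblasts. CYBA also serves the phagocyte oxidase, whose catalytic subunit is encoded by *Cybb*.

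The Duox genes lie in 2 head-to-head pairs within 68.7 kb of chromosome 2 (GRCm38). *Duox2* (ENSMUSG00000068452, chr2:122279247-122298449, minus strand) and *Duoxa2* (ENSMUSG00000027225, chr2:122298900-122302885, plus strand) start 450 bases apart. *Duoxa1* (ENSMUSG00000027224, chr2:122302191-122313730, minus strand) and *Duox1* (ENSMUSG00000033268, chr2:122315672-122347972, plus strand) start 1941 bases apart. *Duoxa1* and *Duoxa2* run into each other over 695 bases on opposite strands, 682 of them exonic in both, so reads there are assigned correctly only if counting used the strand of the stranded kit, which was not given. *Duox1* and *Duox2* are paralogs and may share reads. *Nox4* (ENSMUSG00000030562, chr7:87246096-87398710, plus strand) and *Cyba* (ENSMUSG00000006519, chr8:122424776-122432930, minus strand) lie elsewhere, and the span of *Cyba* is also that of Gm20388 on the other strand, with 0 shared exon bases.

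**Figure D1:**
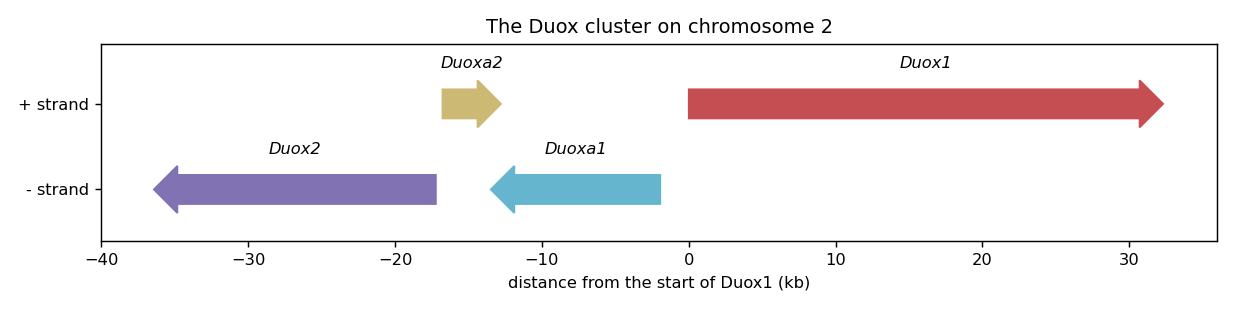
Map of the Duox cluster on chromosome 2, with the distance from the start of Duox1 in kb on the horizontal axis and the strand on the vertical axis; each arrow spans a gene in its direction of transcription. Duox2 and Duoxa2 diverge from starts 450 bases apart, Duoxa1 and Duox1 from starts 1941 bases apart, and the ends of Duoxa2 and Duoxa1 overlap over 695 bases.

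Promoter windows of 250 bases before the RefSeq start (GRCm38.p6) are shown for *Duox1* and *Duoxa1*, the divergent pair whose levels moved most closely together, and for *Duoxa2*, the member with the lowest level. Capitals mark matches to 7 short motifs that were searched on either strand. The windows are *Duox1* at chr2:122315422-122315671 (plus strand, 47.6% GC), *Duoxa1* at chr2:122313731-122313980 (minus strand, 65.6% GC) and *Duoxa2* at chr2:122298650-122298899 (plus strand, 56.4% GC).
Duox1: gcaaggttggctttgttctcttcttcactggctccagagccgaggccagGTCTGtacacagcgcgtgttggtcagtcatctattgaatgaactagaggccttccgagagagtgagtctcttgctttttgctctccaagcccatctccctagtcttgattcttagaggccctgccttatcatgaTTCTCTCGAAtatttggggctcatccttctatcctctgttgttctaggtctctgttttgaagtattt
Duoxa1: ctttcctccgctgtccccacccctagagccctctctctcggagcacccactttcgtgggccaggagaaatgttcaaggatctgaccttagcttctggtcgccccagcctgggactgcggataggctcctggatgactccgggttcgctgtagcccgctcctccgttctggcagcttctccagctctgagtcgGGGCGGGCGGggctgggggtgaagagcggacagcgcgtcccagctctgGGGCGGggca
Duoxa2: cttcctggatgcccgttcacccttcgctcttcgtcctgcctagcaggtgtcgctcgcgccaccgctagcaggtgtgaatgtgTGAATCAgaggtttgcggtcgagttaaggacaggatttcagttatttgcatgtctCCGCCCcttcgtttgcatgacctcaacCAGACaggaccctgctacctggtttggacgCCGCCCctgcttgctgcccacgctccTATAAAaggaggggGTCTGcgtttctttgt

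The windows of the divergent pair *Duox1* and *Duoxa1* held different letters. *Duoxa1* held 3 GC boxes (GGGCGG, present in 32.7% of 32851 promoter windows of the same length), the first and the next overlapping, and no other motif of the set. *Duox1* held no GC box but a STAT6-type element (TTC and GAA with 4 bases between them, 5.85% of windows) and a SMAD element (CAGAC, 42.2%). *Duoxa2* held a TATA box (TATAAA, 12.4%), 2 GC boxes, an AP-1 site (TGANTCA, 6.75%) and 2 SMAD elements. Of the windows not printed, that of *Duox2* held a CCAAT box (CCAAT, 33.8%) and 2 SMAD elements, that of *Nox4* a STAT-type element (TTCNNNGAA, 7.02%), a GC box and a SMAD element, and that of *Cyba* 2 GC boxes. The matches describe letters in these windows and are not shown to be used.

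*Duox1* was far higher in the CD26+ class than in the CD26- class of every mouse. In NFs its level was 60.01, 169.3 and 107.0 CPM in the CD26+ sums of replicates 1, 2 and 3 and 1.16, 5.004 and 0.9275 CPM in their CD26- sums. In CAFs it ranged from 98.32 to 177.2 CPM (median 127.8, n = 9) in CD26+ sums and from 2.071 to 8.045 CPM (median 4.579, n = 10) in CD26- sums. The classes did not overlap, and within a mouse the CD26+ level was 14.27 to 115.4 times the CD26- level, with a median ratio of 30.15 over 12 mice. The fitted log2 difference between CD26+ and CD26- was 4.72 ± 0.30 (SE) in CAFs and 5.57 ± 0.57 in NFs. The CD26- level was a small share of the CD26+ level, with a median of 3.367% over 12 mice, against 1.317% for *Dpp4*.

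*Duoxa1*, whose product carries DUOX1 to the cell surface, followed the same order. Its CD26+ levels in NFs were 37.43, 104.8 and 68.74 CPM, against 1.015, 3.798 and 0.8281 CPM in CD26- sums of the same mice. In CAFs the CD26+ sums held 74.1 to 123.1 CPM (median 106.1) and the CD26- sums 2.885 to 11.12 CPM (median 6.422). As for *Duox1*, NF replicate 2 was the highest of the controls in both classes and no CD26- sum reached a CD26+ sum. The within-mouse ratio was 8.344 to 83.01 (median 19.2), and the log2 difference was 3.93 ± 0.28 in CAFs and 5.23 ± 0.54 in NFs.

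*Duox2* was lower than *Duox1* and more uneven among CAFs. The CD26+ NFs held 40.72, 36.75 and 37.35 CPM, with little spread between mice, while the CD26- NFs held 1.631, 4.821 and 0.1325 CPM. CD26+ CAFs ranged from 14.66 CPM in WB1P replicate 6 to 80.19 CPM in WB1P-Myc replicate 11 (median 44.71). CD26- CAFs ranged from 0.198 to 2.309 CPM (median 0.5371). Classes were again apart, with within-mouse ratios of 7.622 to 327.9 (median 56.84) and log2 differences of 5.99 ± 0.53 in CAFs and 4.13 ± 0.83 in NFs. Without NF replicate 2 the difference in NFs was 5.48.

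*Duoxa2* was barely counted. The CD26+ NFs held 37, 8 and 13 counts (1.466, 0.3021 and 0.4186 CPM) and the CD26- NFs 4, 14 and 2 counts. CD26+ CAFs held 4 to 46 counts, or 0.4379 to 3.477 CPM. In CD26- CAFs it had 0 counts in 8 of 10 sums and at most 2 in the others, below the 3 counts that a sum at 0 allows. Set against that floor, the CD26+ level was at least 3.161-fold to at least 20-fold higher within each of the 9 CAF mice. NF replicate 2 was the exception among the 12 mice, with more counts in its CD26- sum, and the NF difference of 1.58 ± 0.85 moved to 0.32 without NF replicate 1 and to 3.08 without NF replicate 2.

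*Nox4* was expressed in either class. In NFs it held 33.71, 89.02 and 63.01 CPM in CD26+ sums and 19.6, 45.25 and 21.8 CPM in CD26- sums. In CAFs the ranges were 80.77 to 155.2 CPM (median 99.35) in CD26+ sums and 44.04 to 88.52 CPM (median 62.43) in CD26- sums. The ranges overlapped in NFs and in CAFs, yet the CD26+ sum was the higher in 12 of 12 mice, by 1.296 to 2.891 times (median 1.901). The log2 difference was 0.80 ± 0.19 in CAFs and 1.10 ± 0.33 in NFs.

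*Cyba* stood apart from the rest in having nearly equal levels in the classes. The CD26+ and CD26- NFs held 28.78 to 33.42 and 32.93 to 36.53 CPM, and the CD26+ and CD26- CAFs 39.96 to 55.55 and 39.95 to 58.94 CPM. It was higher in CD26+ cells in 4 of 12 mice, with ratios of 0.7036 to 1.184 (median 0.8991). The log2 difference was -0.12 ± 0.08 in CAFs and -0.16 ± 0.14 in NFs.

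**Figure D2:**
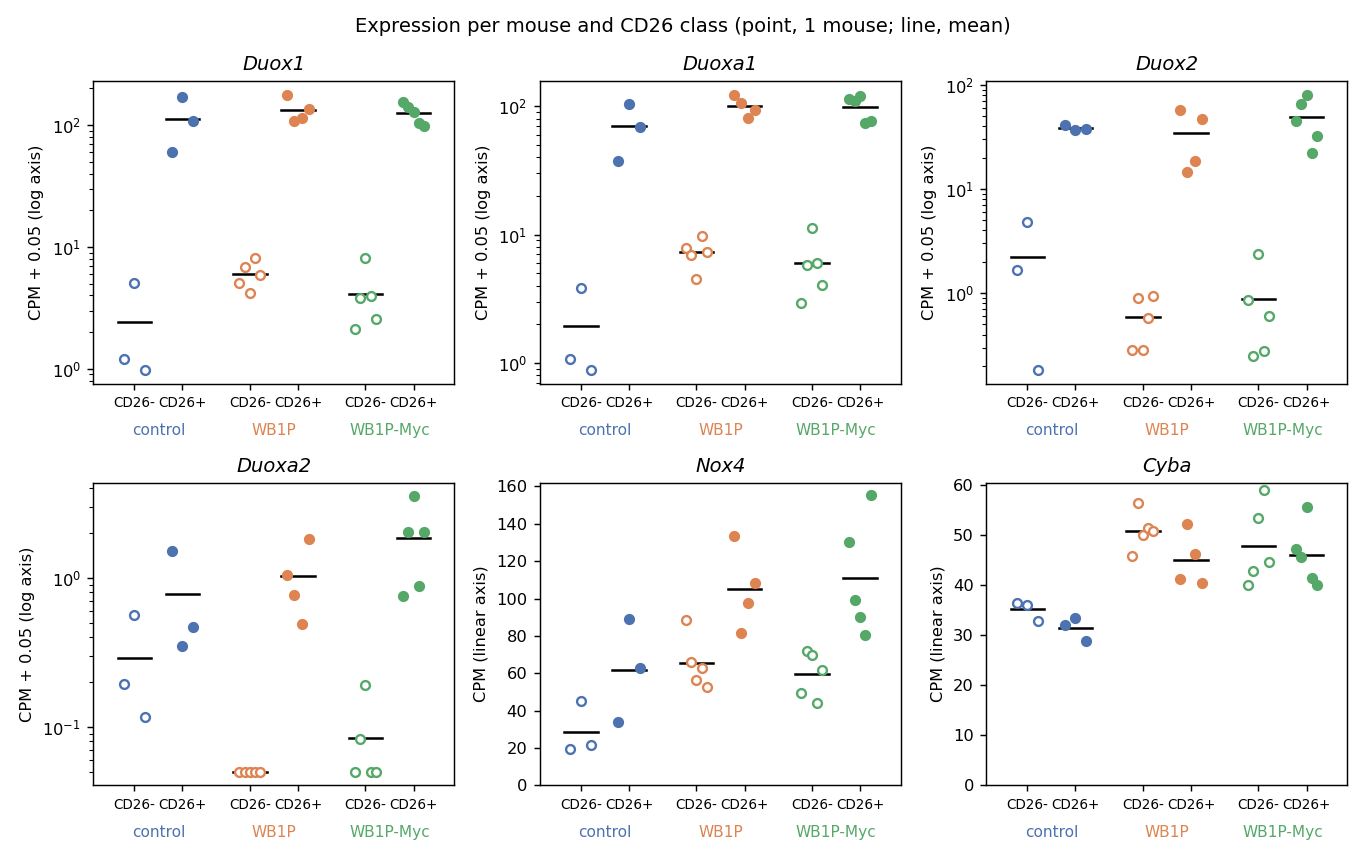
Expression of the 6 genes per mouse and CD26 class, in CPM, for control, WB1P and WB1P-Myc mice; each point is a mouse, each line a group mean, the Duox and Duoxa panels have a log axis of CPM plus 0.05, and the Nox4 and Cyba panels a linear axis. Duox1, Duoxa1 and Duox2 have no CD26- point as high as any CD26+ point, whereas Nox4 overlaps between classes and Cyba is at 28.78 to 58.94 CPM throughout.

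In the fit over 16601 genes, 5 of the 6 genes passed FDR < 0.05 for CD26 class in CAFs, where 39.0% of all genes passed, and 3 of 6 (*Duox1*, *Duoxa1* and *Duox2*) in NFs, where 4.17% passed (edgeR). Since these contrasts chose the genes, nothing is read from the counts. In the order of the CD26+ over CD26- log2 differences of CAFs, *Duox2* ranked 12, *Duox1* 36 and *Duoxa1* 78 of 16601, *Nox4* 1562 and *Cyba* 9980. *Duoxa2* ranked 3, on CD26- sums of 0 to 2 counts. In NFs the ranks were 37 for *Duox1*, 46 for *Duoxa1*, 93 for *Duox2*, 517 for *Duoxa2*, 809 for *Nox4* and 10946 for *Cyba*. These ranks use the values that chose the genes and are descriptions. The sorted CAF classes also differed in other cells' markers: all 8 pericyte markers (*Rgs5*, *Kcnj8*, *Abcc9*, *Notch3*, *Cspg4*, *Mcam*, *Higd1b* and *Myh11*) were lower in CD26+ CAFs (edgeR, FDR < 0.05), and their summed level was 1897.0 to 9409.6 CPM in CD26- CAFs against 156.2 to 393.5 CPM in CD26+ CAFs. In NFs the pericyte sums were 214.4 to 398.1 CPM in CD26- and 172.8 to 193.2 CPM in CD26+ sums, without overlap, and 2 of 8 markers were lower. In CD26+ CAFs 4 of 6 endothelial markers were also lower and 1 higher (median log2 difference -1.57). Of 5 Schwann markers 3 were lower and 1 higher (median -1.60), and of 8 epithelial markers 0 were called. The part of pericytes and of these other cells in the differences of the 6 genes was not tested. In such bulk samples, fewer cells of a type and less RNA per cell cannot be told apart.

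Per kb of exon the Duox genes were not on the same footing. In CD26+ CAFs the mean level was 24.53 CPM per kb for *Duox1*, 25.12 for *Duoxa1*, 6.264 for *Duox2* and 0.9026 for *Duoxa2*, with 12.81 for *Nox4* and 43.83 for *Cyba*. By the same scale, 89.4% of 16582 genes lay below *Duox1* in CD26+ CAFs, 80.9% below *Nox4* and 93.9% below *Cyba*, while 32.6% lay below *Duox1* in CD26- CAFs. *Duox1* thus exceeded *Nox4* per kb in CD26+ cells and was below it in CD26- cells. The length is the union of exons over all transcripts, 8471 bases over 8 transcripts for *Nox4* and 5267 over 1 for *Duox1*. The size of the excess depends on that choice. In CPM, the CD26+ CAF means were 129.2 for *Duox1* and 108.5 for *Nox4*, and *Nox4* was the higher in WB1P-Myc replicate 13 (155.2 against 98.32). The *Duox1* to *Nox4* ratio was 1.972 ± 0.3823 (SD, n = 9) in CD26+ CAFs, 0.1305 ± 0.05222 (n = 10) in CD26- CAFs, 2.885 ± 0.1651 (n = 3) in CD26+ NFs and 0.1138 ± 0.05702 (n = 3) in CD26- NFs.

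The ratio of the partner to its oxidase differed by class. *Duoxa1* per *Duox1*, both per kb, was 1.342 to 2.095 (mean 1.788) in CD26- CAFs and 0.9125 to 1.291 (mean 1.032) in CD26+ CAFs, with no overlap. In NFs it was 1.005 to 1.182 in CD26- and 0.8196 to 0.8506 in CD26+ sums, and the CD26- value was the higher in 12 of 12 mice. *Duox2* per *Duox1* went the other way in CAFs, at 0.1129 ± 0.09257 (SD, n = 10) in CD26- and 0.2491 ± 0.119 (n = 9) in CD26+ sums, and was lower in CD26- cells in 8 of 9 mice. In NFs the *Duox2* ratio was higher in CD26- cells in 2 of 3 mice. *Duoxa2* per *Duox2* was 0.1502 ± 0.06502 in CD26+ CAFs and 0.07858 ± 0.06485 in CD26+ NFs. In CD26- NFs, on 2 to 14 counts of *Duoxa2*, it was 0.3781 to 2.127 and higher than in CD26+ cells in 3 of 3 mice. The *Cyba* to *Nox4* ratio was higher in CD26- cells in 12 of 12 mice, with means of 6.729 ± 1.822 in CD26- CAFs and 3.626 ± 1.071 in CD26+ CAFs. These ratios share the counts that chose the genes and were not tested, and the *Duoxa1* values depend on how reads of the overlap with *Duoxa2* were assigned. The levels of all the ratios also depend on the exon lengths used.

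**Figure D3:**
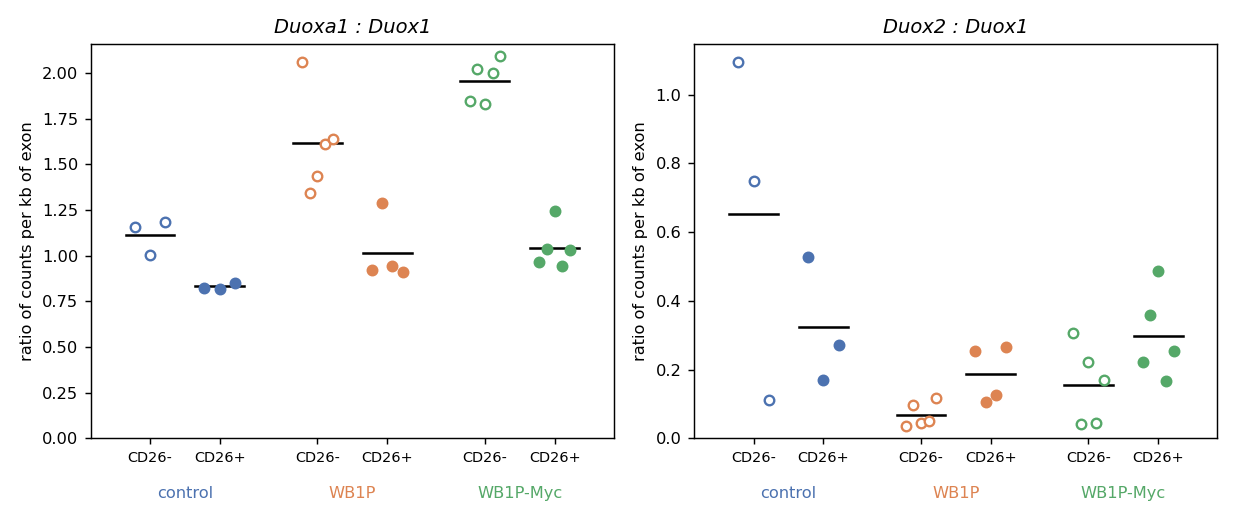
Ratios of CPM per kb of exon between members, per mouse and CD26 class (points, mice; lines, group means; linear axes from 0), for control, WB1P and WB1P-Myc mice. The Duoxa1 to Duox1 ratio is above 1.3 in every CD26- CAF sum and below it in every CD26+ sum.

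Between CAFs and NFs, the fitted differences of the Duox genes in the CD26- class had different signs and depended on NF replicate 2. *Nox4* and *Cyba* were on average higher in CAFs of either class. The low CD26- level of *Duox1* was 5.021 ± 2.129 CPM (SD, n = 10) in CAFs and 2.364 ± 2.289 (n = 3) in NFs, a log2 difference of 1.06 ± 0.43 (SE). *Duoxa1* was 6.593 ± 2.562 against 1.88 ± 1.664 CPM, a difference of 1.80 ± 0.43. *Duox2* had the lower mean in CD26- CAFs, at 0.6823 ± 0.6343 against 2.195 ± 2.395 CPM, a difference of -1.76 ± 0.65. However, NF replicate 3 (0.1325 CPM) lay below every CD26- CAF sum (lowest 0.198 CPM). NF replicate 2 was the highest of the controls for these 3 genes. Without it the differences rose to 2.25 for *Duox1* and 2.84 for *Duoxa1*, while that of *Duox2* shrank to -0.42 ± 0.79 (SE). For *Duoxa2*, 8 of 10 CD26- CAF sums had no count while all 3 NF sums had 2 to 14.

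In CD26+ cells the Duox genes of CAFs and NFs overlapped. The log2 differences, CAFs minus NFs, were 0.21 ± 0.38 for *Duox1*, 0.51 ± 0.37 for *Duoxa1*, 0.10 ± 0.59 for *Duox2* and 0.88 ± 0.68 for *Duoxa2*. *Nox4* was higher by 1.11 ± 0.29 in CD26- CAFs (62.41 ± 12.75 against 28.88 ± 14.22 CPM) and by 0.81 ± 0.28 in CD26+ CAFs (108.5 ± 25.76 against 61.91 ± 27.67 CPM). The CD26- difference of *Nox4* was 1.61 without NF replicate 2, and the CD26+ difference 0.51 without NF replicate 1. NF replicate 2 overlapped the CAFs for *Nox4* in each class. *Cyba* did not overlap: its lowest CAF sum, 39.95 CPM, was above its highest NF sum, 36.53 CPM. CAF and NF sums did not overlap for 25.1% of all 16601 genes in the CD26- class and 25.2% in the CD26+ class. The log2 difference of *Cyba* was 0.49 ± 0.12 in CD26- and 0.53 ± 0.12 in CD26+ CAFs.

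The fit called 5 of 6 genes (3 higher, 2 lower) in CD26- CAFs against NFs, beside 41.3% of all genes, and 2 of 6 (*Nox4* and *Cyba*, higher) in CD26+ CAFs against NFs, beside 41.2%. The groups that chose the genes are those compared, and nothing is read from these counts. Other markers moved with this comparison. The 8 pericyte markers all passed as higher in the CD26- class of CAFs, with a median log2 difference of 3.85. In the CD26+ class 1 was higher, 2 lower and 5 not called, with a median of 0.96. The proliferation list (*Mki67*, *Top2a*, *Ccnb1*, *Cdk1*, *Birc5* and *Ube2c*) summed to 150.9 to 425.1 CPM in CAFs and 4.683 to 109.8 CPM in NFs. The mesothelial list summed to 7.001 to 46.1 CPM in CAFs and 0.265 to 1.664 CPM in NFs. In each CAF class 2 of its 4 genes had at most 3 counts in any sum. Only 2 genes were tested, of which 2 passed as higher in CD26- cells and 1 in CD26+ cells. *Wt1* rose by 5.65 ± 0.60 in CD26- and 5.00 ± 0.57 in CD26+ cells. Of the 8 immune markers, 3 were higher, 1 lower and 4 not called in the CD26- comparison. In the CD26+ comparison 2 were higher, 1 lower and 5 not called. The median log2 differences were 1.87 and 1.79, and *Csf1r* rose by 2.28 ± 0.54 and 2.57 ± 0.56. The summed immune level overlapped between CAFs and NFs in each class. It was 13.49 to 79.82 CPM in CD26- CAFs and 19.54 to 25.27 CPM in CD26- NFs. In CD26+ cells it was 21.71 to 250 CPM in CAFs and 18.42 to 31.37 CPM in NFs. The part of all these markers in the levels of *Nox4* and *Cyba* was not tested.

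WB1P and WB1P-Myc CAFs overlapped for all 6 genes in both classes. In CD26- sums *Duox1* averaged 5.979 ± 1.522 CPM (SD, n = 5) in WB1P and 4.062 ± 2.363 (n = 5) in WB1P-Myc, and in CD26+ sums 134.2 ± 31.03 (n = 4) and 125.2 ± 24.28 (n = 5). *Duox2* in CD26+ sums was 34.41 ± 21.12 in WB1P and 48.82 ± 23.72 in WB1P-Myc. *Duoxa2* in CD26+ sums was 0.9864 ± 0.5806 in WB1P and 1.797 ± 1.122 in WB1P-Myc, a log2 difference of 0.82 ± 0.66, while its CD26- sums held at most 2 counts in either model. The log2 differences of the other 5 genes, WB1P-Myc minus WB1P, lay between -0.57 ± 0.39 and 0.37 ± 0.79 in CD26- cells and between -0.10 ± 0.38 and 0.49 ± 0.60 in CD26+ cells. None of the 6 genes was called, beside 0.512% of all genes in CD26- cells and 0% in CD26+ cells, where edgeR called 0 genes, 646 had an unadjusted p under 0.05, and DESeq2 called 8. The *Duoxa1* to *Duox1* ratio of CD26- CAFs was 1.618 ± 0.2753 in WB1P and 1.958 ± 0.1155 in WB1P-Myc, with overlapping ranges.

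**Figure D4:**
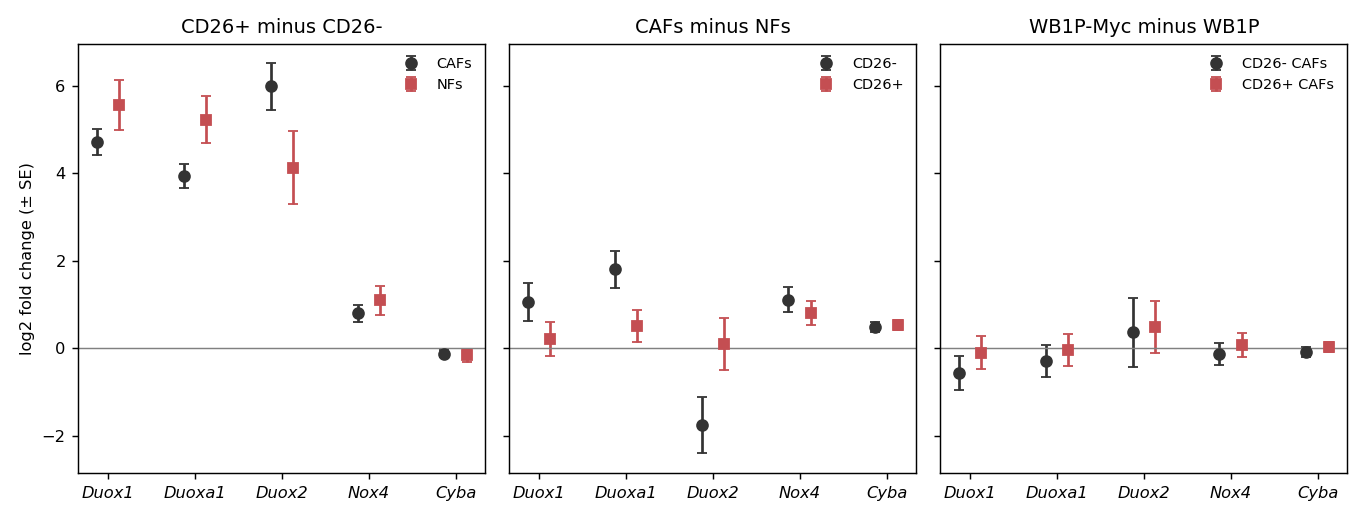
Fitted log2 fold changes (± SE, edgeR) of 5 of the genes for CD26+ minus CD26-, CAFs minus NFs and WB1P-Myc minus WB1P, without Duoxa2, whose CD26- CAF sums were at or near 0. Duox1, Duoxa1 and Duox2 lie between 3.93 and 5.99 for CD26 class and Cyba near 0. In CD26- CAFs against NFs Duoxa1 lies at 1.80 and Duox2 at -1.76, which was -0.42 without NF replicate 2.

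Across the 6 groups in order of their means, the only step at which neighboring groups did not overlap was, for *Duox1* and *Duoxa1*, from CD26+ NFs down to CD26- CAFs of WB1P. For *Duox2* it was from CD26+ CAFs of WB1P (34.41 CPM) down to CD26- NFs (2.195 CPM). *Nox4* and *Duoxa2* had no such step, and *Cyba* had 1, from CD26+ CAFs of WB1P (44.99 CPM) down to CD26- NFs (35.18 CPM).

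The En1 lineage, by contrast, was not used in choosing the genes and was tested within each CD26 class. No member passed FDR < 0.05 in any of the 4 comparisons (edgeR, 15584 genes), in which few genes passed at all: 0% between En1+ and double- CAFs (0 genes, with 641 at an unadjusted p under 0.05 and 7 called by DESeq2), 0.0193% between double+ and CD26+ CAFs, and 0.00642% in each NF comparison. In CAFs, *Duox1* was 2.78 to 8.539 CPM (median 4.75) in 8 En1+ libraries and 2.091 to 8.174 CPM (median 4.179) in 9 double- libraries, a log2 difference of -0.06 ± 0.32 (FDR = 1.00, edgeR). In CD26+ CAFs it was 99.26 to 160.4 CPM in 9 double+ and 92.79 to 181.6 CPM in 6 CD26+ libraries, with a difference of 0.00 ± 0.30 (FDR = 1.00, edgeR). *Duoxa1* differed by -0.10 ± 0.29 and 0.12 ± 0.29 in these comparisons. The ranges of the lineages overlapped for both genes.

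The largest of these differences were in the low Duox levels of CD26- NFs. *Duox2* was 0.3293, 1.312 and 0.06936 CPM in En1+ and 3.094, 7.699 and 0.1858 CPM in double- libraries of NF replicates 1, 2 and 3, lower in En1+ in 3 of 3 mice but overlapping between mice. The log2 difference was -2.73 ± 0.87 (unadjusted p = 0.00336, FDR = 1.0, edgeR; FDR = 0.247 with the mouse as replicate block). *Duox1* was 0.461, 3.034 and 0.6242 CPM in En1+ and 1.934, 6.637 and 1.177 CPM in double- libraries, a difference of -1.30 ± 0.59 (unadjusted p = 0.0354, FDR = 1.0, edgeR). *Duoxa2* had 1, 0 and 0 counts in En1+ and 3, 14 and 2 in double- libraries (unadjusted p = 0.00736, FDR = 1.0, edgeR), and *Duoxa1* was also lower in En1+ in 3 of 3 mice. In the same libraries the epithelial markers summed to 8.956, 13.29 and 44.53 CPM in En1+ and 76.74, 37.63 and 89.31 CPM in double- cells, and the endothelial markers to 11.39 to 29.89 CPM in En1+ and 34.27 to 49.05 CPM in double- cells, without overlap. *Dpp4* was 1.976, 7.053 and 5.826 CPM in En1+ and 1.393, 6.836 and 5.946 CPM in double- cells. The part of epithelial and endothelial cells in these Duox values was not tested.

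In CAFs, *Duox2* was likewise lower in En1+ than in double- libraries, at 0.08137 to 0.8434 CPM (median 0.2106) against 0.1374 to 2.346 CPM (median 0.8342). It was lower in 5 of 7 mice with both, a log2 difference of -1.55 ± 0.70 that did not pass (unadjusted p = 0.0326, FDR = 1.00, edgeR). *Dpp4* moved with it in these libraries, with medians of 5.077 CPM in En1+ and 7.257 CPM in double- cells, lower in En1+ in 6 of 7 mice (log2 difference -0.81 ± 0.41, unadjusted p = 0.0562, FDR = 1.00, edgeR). The epithelial markers had higher median sums in En1+ than in double- CAFs (79.15 and 60.48 CPM). Immune (25.98 and 55.83), pericyte (2540.8 and 3256.7), endothelial (16.89 and 23.46) and Schwann (10.33 and 14.72) medians were lower in En1+. The ranges of all these sums overlapped. The part of *Dpp4* and of these markers was not tested. *Nox4* was 75.96 to 149.2 CPM in double+ and 84.06 to 173 CPM in CD26+ CAFs, lower in double+ in 5 of 6 mice, with a difference of -0.34 ± 0.23 (FDR = 1.00, edgeR). *Nox4* and *Cyba* differed by 0.02 ± 0.22 and -0.11 ± 0.09 between En1+ and double- CAFs.

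**Figure D5:**
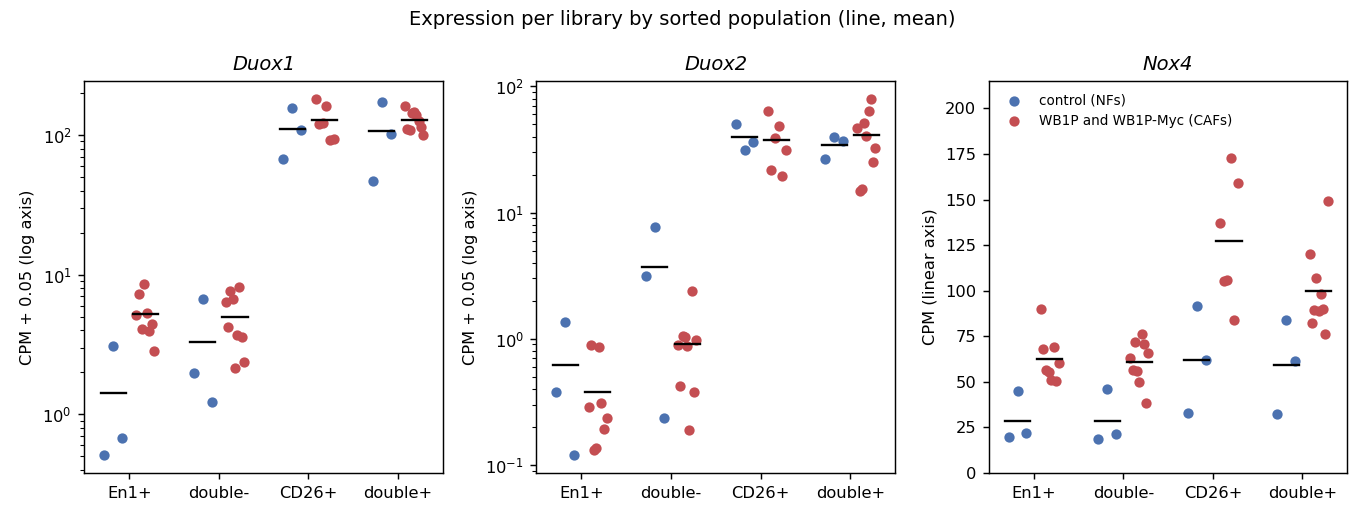
Expression of Duox1, Duox2 and Nox4 per library in the 4 sorted populations (points, libraries; lines, means; log axes of CPM plus 0.05 for Duox1 and Duox2, linear for Nox4), with NFs and CAFs side by side. Duox1 and Duox2 step between the CD26- populations (En1+ and double-) and the CD26+ populations (CD26+ and double+), and in double- NFs Duox2 spans 0.1858 to 7.699 CPM.

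Genes around the oxidases were followed in 6 lists of 73 genes, of which 62 passed the filter on low counts. For CD26 class in CAFs, 23 were higher in CD26+ and 12 lower (edgeR, FDR < 0.05), beside the 39.0% of all 16601 genes called in this comparison, of which 3165 were higher and 3306 lower. The lists are small, and their counts are given as descriptions beside that share. Of 11 other NADPH oxidase components tested, 6 were lower and 1 higher in CD26+ CAFs, with a median log2 difference of -0.32 beside 0.01 over all genes. *Cybb*, the catalytic subunit of the phagocyte oxidase, fell from 3.002 to 0.8397 CPM (log2 difference -1.78 ± 0.53, FDR = 0.0101, edgeR). *Ncf1*, *Ncf4*, *Rac2* and *Cybc1* were also lower, and the 1 higher was *Rac3* (0.60 ± 0.19). Immune markers moved with these genes: of 8, the leukocyte marker *Ptprc* (-1.45 ± 0.54) and the myeloid markers *Adgre1* (-1.63 ± 0.53) and *Lyz2* (-1.48 ± 0.56) were lower in CD26+ CAFs, and the T cell marker *Cd3e* was higher, at 8.008 CPM in CD26- and 69.38 in CD26+ cells. The list had a median log2 difference of -0.68, while its summed level, which includes *Cd3e*, ranged from 13.49 to 79.82 CPM in CD26- and from 21.71 to 250 CPM in CD26+ sums. Its part in the phagocyte oxidase values was not tested. The catalytic genes *Nox1* and *Nox3* and the NOX1 activator *Noxa1* had 40, 1 and 0 counts over all libraries.

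*Lpo*, the peroxidase of milk, was barely counted, with 12 counts over 44 libraries. Of the 4 heme peroxidases tested, *Ptgs1* and *Ptgs2*, the prostaglandin synthases, rose in CD26+ CAFs by 2.04 ± 0.22 (FDR = 1.89e-07, edgeR) and 0.98 ± 0.28, and *Pxdn*, the matrix peroxidase peroxidasin, stood at 610.8 and 750.9 CPM in CD26- and CD26+ CAFs without passing. *Ptgs1* rose in CD26+ NFs too, from 13.32 to 50.45 CPM (1.92 ± 0.39, FDR = 0.00509, edgeR).

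Enzymes that remove superoxide and peroxide were higher in CD26+ CAFs in 8 of 16 tested and lower in 0, beside 3165 higher and 3306 lower of all 16601 genes, with a median log2 difference of 0.33. *Sod3*, the secreted superoxide dismutase, rose from 428.3 to 949.9 CPM (1.16 ± 0.19, FDR = 4.44e-05, edgeR), *Prdx6* by 0.77 ± 0.16, *Prdx5* by 0.65 ± 0.10 and the endoplasmic reticulum peroxidase *Gpx7* by 0.51 ± 0.12. Of the NRF2 and NADPH-supply list, 9 of 16 were higher and 0 lower (median 0.50). *Pgd*, *G6pdx* and *Idh1*, which make the NADPH that these oxidases consume, rose by 0.88 ± 0.10, 0.70 ± 0.12 and 0.96 ± 0.16, and *Hmox1*, the heme oxygenase, by 1.26 ± 0.35. The same lists had 0 of 16 and 1 of 16 higher in NFs, where *Pgd* rose by 1.08 ± 0.18 (FDR = 0.000647, edgeR). In all, 3 of 62 genes passed for CD26 class in NFs, and 10 with the mouse as replicate block.

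Aquaporins pass water and, for some members, hydrogen peroxide. *Aqp1* was the third gene called in NFs, at 339.9 CPM in CD26- and 36.59 CPM in CD26+ cells (-3.22 ± 0.62, FDR = 0.00297, edgeR), and it rose in CD26+ CAFs by 0.99 ± 0.33. *Aqp5* and the nearly absent *Aqp7* were lower in CD26+ CAFs. Of the TGFβ-response list, 4 of 10 were lower in CD26+ CAFs (*Acta2*, *Tagln*, *Cnn1* and *Tgfb1*) and 2 higher (*Smad7* and *Ccn1*), with a median of -0.61. *Acta2*, smooth muscle actin, averaged 1063.4 CPM in the CD26- class of CAFs and 193.8 CPM in their CD26+ class (-2.44 ± 0.35), opposite in direction to *Nox4*. *Acta2* is also expressed by pericytes, whose markers moved with it, and their part in its level was not tested.

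Between CAFs and NFs, 25 of the 62 were higher and 3 lower in CD26- cells, and 26 higher and 2 lower in CD26+ cells. The share called was near that of all genes, 41.3% and 41.2%. Of all genes tested, 3380 were higher and 3480 lower in CD26- cells, and 3338 higher and 3509 lower in CD26+ cells. *Rac1* rose in each class, by 0.56 ± 0.10 and 0.51 ± 0.10, and *Hvcn1*, the voltage-gated proton channel, fell by 1.12 and 1.03 on the log2 scale. *Prdx5* rose by 1.01 ± 0.16 and 1.49 ± 0.17, *Gpx7* by 0.74 ± 0.18 and 1.26 ± 0.19, and *Gsr*, glutathione reductase, by 1.73 ± 0.26 and 1.47 ± 0.26. Of the TGFβ-response genes, 6 and 5 of 10 rose, *Acta2* by 3.72 ± 0.61 and 2.26 ± 0.55 and *Ccn2* by 4.63 ± 0.56 and 3.56 ± 0.52. The list genes had 0 calls between WB1P-Myc and WB1P in either class and 0 in the En1 comparisons (edgeR, FDR < 0.05).

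Among themselves, *Duox1* and *Duoxa1* had the closest pattern, with a Pearson r of 0.991 in log2 CPM over the 25 sums, 0.942 over the 10 CD26- CAF sums and 0.784 over the 9 CD26+ CAF sums. *Duox1* and *Duox2* had 0.926 over all sums, but 0.348 within CD26- and 0.664 within CD26+ CAFs. *Duox2* and *Duoxa2* had 0.922 over all sums and 0.726 within CD26+ CAFs. *Nox4* and *Cyba* had 0.279 over all sums and -0.516 within CD26+ CAFs. Sums of the same mouse share an animal, and over the 25 sums the classes form separate clusters for the Duox genes, so these coefficients are descriptions.

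Outside the 6 genes, *Islr2* was the most like both *Duox1* (r = 0.978) and *Duoxa1* (r = 0.983) over the 25 sums, followed by *Krtdap* (0.971) and *Bmp6* (0.970) for *Duox1* and by *Sbsn* and *Anxa3* (0.968 each) for *Duoxa1*. *Duox2* was most like 1700019D03Rik (0.954), *Cd55* (0.947) and *Lrrn4cl* (0.945), and *Duoxa2* most like *Htra3* (0.887), *Lrrn4cl* (0.883) and Gm31378 (0.876). *Nox4* had *Nfkbiz* (0.902), *Nsg1* (0.895) and *Epdr1* (0.892), and *Cyba* had *Atp6v0e* (0.904), *Erfe* (0.902) and *Tfpi2* (0.899). The lists of the Duox genes and of *Nox4* and *Cyba* held no gene in common. Over the 19 CAF sums alone the nearest gene was *Bmp6* for *Duox1* and *Duoxa1* (0.986 each), *Krtdap* for *Duox2* (0.973), *Daglb* for *Duoxa2* (0.959), *Unc93a* for *Nox4* (0.879) and again *Atp6v0e* for *Cyba* (0.795).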

How the data were processed

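RNA of sorted fibroblasts was sequenced by the authors from a stranded TruSeq kit and aligned with HISAT2 2.2.1 to GRCm38, per the submitters' processing notes; the counter, its strand setting and the annotation release were not given in the sources used here. The deposited values are raw counts per gene, and 1 line without a gene name held 0 counts. Exon lengths came from GENCODE M21, as the union of the exons of all transcripts of a gene.

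Counts were summed per mouse and CD26 class. edgeR 4.0.16 (filterByExpr, TMM, quasi-likelihood test, Benjamini-Hochberg FDR < 0.05; R 4.3.3, limma 3.58.1) was fitted over 6 groups, and over 12 groups of single libraries for En1; CAF means weight WB1P and WB1P-Myc equally. CPM use TMM-scaled totals. The step was tested on simulated data: for CD26 class in CAFs, 197 of 200 changed genes among 16601 were recovered with 6 false calls, and for En1+ against double- NFs 178 of 200 among 15584 with 10. The simulated counts held no effect of the mouse, so they do not show how pairing within a mouse acts on the calls. The changed genes were drawn only from those above a minimum mean level and given a large fixed fold change. Their recovery therefore does not tell how smaller changes, or changes at the low Duox levels of CD26- NFs, would be found. Alternatives were DESeq2 1.42.0, no count filter, the mouse as replicate block, and mice left out. The classes of a mouse come from the same animal, and their deviations correlated (r 0.237 to 0.668 over 12 pairs). No libraries of a group were copies (chi-square per gene at least 14.8 over 63 pairs). The submitters name 2 sequencing platforms without assigning libraries, so no batch could be tested.

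Members and gene lists were chosen with earlier results of these data known. Named genes were the 6 members, list genes first by fold among those called, the 3 genes of highest Pearson r (log2 CPM, prior count 2, mean at least 1 CPM) for each member, and *Dpp4*; *Lpo*, *Nox1*, *Nox3*, *Noxa1* and *Aqp7* were named after their values were seen. Promoters came from RefSeq (all 6 members matched); protein sequences were not used here. Some list genes are not reported here.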

Additional observations from a re-analysis of the deposited data

Results flagged for a closer look

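Of 36 groups of member values tested for a sample far from the others, 3 stood out, where chance gives about 1.8 (1 in 20 groups). All 3 came from the CD26- sum of WB1P-Myc replicate 11. Its *Duox2* level, 2.309 CPM, was the highest of the 10 CD26- CAF sums, with the next at 0.8873 CPM. Its *Duoxa2* level, 0.1399 CPM or 2 counts, was the highest of the 5 WB1P-Myc sums and of the 10 CD26- CAF sums, with the next at 0.033 CPM. The same sum held the highest *Dpp4* level of the CD26- CAFs, 15.32 CPM. It came from a double- library alone, as no En1+ library of that mouse was analysed here.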

How the results depend on the processing

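In the CD26, CAF and Myc comparisons the log2 differences of the 6 genes moved by less than the spread between mice in 626 alternative values and by more in 10, which are 8 values with 1 mouse left out and 2 of *Duoxa2* between WB1P-Myc and WB1P CD26- CAFs. *Duox1* in CD26+ CAFs against NFs, 0.21, was -0.10 without NF replicate 1. All 432 alternative values of the En1 comparisons stayed without a call. The lowest En1 FDR of any member under an alternative was 0.247, for *Duox2* in NFs with the mouse as replicate block. Counts of called genes depended more on the setting, and the cause was not tested. For CD26 class in NFs, 692 genes became 1916 with the replicate block, 2143 with single libraries and 175 to 719 with 1 mouse left out; the 3 list genes became 10, 8 and, with DESeq2, 5. For WB1P-Myc against WB1P in CD26- CAFs, 85 became 401 with DESeq2, 54 without the count filter, 50 without the 2 mice marked 8x8 and 9 (without WB1P-Myc replicate 13) to 243 (without WB1P-Myc replicate 12) with 1 mouse left out, and DESeq2 called 1 list gene; in CD26+ CAFs DESeq2 called 8 genes. Between En1+ and double- CAFs, DESeq2 called 7 and the replicate block 11 in place of 0; in NFs, 1 became 6, 25 and 0 to 1. Between double+ and CD26+ CAFs, 3 became 1 without the mice marked 8x8 and 1 to 3 with 1 mouse left out; in NFs, 1 became 3 with the replicate block and 0 to 1. No paired fit changed a call of a member in the En1 comparisons. *Cyba* in CD26- NFs was 37.72 CPM on raw totals in place of 35.18. Depth limits *Duoxa2* most, whose CD26- values rest on 0 to 14 counts.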
